A study of Mus musculus with 9 samples.

Results

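Expression was compared directly between a pair of transformed mouse fibroblast lines, one expressing v-Src and one expressing STAT3-C, to ask what the kinase oncoprotein does that constitutively active STAT3 does not, and the reverse. The comparison takes 6 of the 9 arrays of the study, the 3 whose titles name v-Src and the 3 whose titles name STAT3-C, and all 45037 probesets other than the Affymetrix control probesets. The v-Src line is Balb/c-3T3 fibroblasts stably transfected with pMvSrc, and the STAT3-C line is Balb/c-3T3 fibroblasts stably transfected with pRc/CMV-STAT3C, in which a viral promoter drives a Flag-tagged STAT3 that is constitutively active. The remaining 3 arrays are of control Balb/c-3T3 cells, and they are used here only to place a level. All 3 lines were grown in the same medium with bovine calf serum, and the arrays of a line are passages, each pooled from several dishes. The v-Src arrays carry the numbers 1, 5 and 6 and the STAT3-C arrays the numbers 1, 2 and 3. Because each oncoprotein is represented by 1 line, a difference between the oncoproteins and a difference between the lines cannot be told apart, and p-values measure the spread between passages.

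v-Src is the tyrosine kinase of Rous sarcoma virus. It phosphorylates many proteins of the cell, among them adhesion and cytoskeletal proteins, adapters that feed the Ras-ERK and phosphatidylinositol 3-kinase pathways, and STAT3 itself. STAT3 is a transcription factor that dimerizes after tyrosine phosphorylation, enters the nucleus and binds motifs of the GAS type; in STAT3-C, cysteine substitutions hold the dimer together without the kinase. v-Src thus activates STAT3 together with the other pathways, whereas STAT3-C supplies active STAT3 without the kinase.

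Values are expression levels on the log2 scale after Robust Multichip Average (RMA) normalization by the authors, so a difference of 1 is a 2-fold change, and differences are given as v-Src minus STAT3-C. The array medians lay between 6.27 and 6.39, and the lower quartiles had a median of 5.14, a level treated here as background. Across all probesets the Pearson correlation was 0.992 to 0.995 among v-Src arrays, 0.990 to 0.995 among STAT3-C arrays and 0.971 to 0.977 between the lines. Each line correlated at 0.943 to 0.948 with the control arrays. The bacterial hybridization spike-ins BioB, BioC and BioD differed between the v-Src and STAT3-C arrays by -1.44 to -0.87 over 14 probesets. The Cre spike-ins differed by -0.27 over 4. The 27 poly-A spike-in probesets differed by -0.26 to 0.10, but their line means were only 3.37 to 6.21, mostly below background. Probesets at such levels can show little difference. The difference between the 3' and 5' actin control probesets was 0.29 to 0.30 on the v-Src arrays and 0.48 to 0.57 on the STAT3-C arrays, and for Gapdh it was -0.10 to 0.01 and -0.14 to -0.08, which overlap. The part of either in the differences below was not tested. Both lines held high levels of the fibroblast genes Vim (13.43 in v-Src and 13.17 in STAT3-C cells) and Col1a1 (11.70 and 11.17), and the defining leukocyte gene Ptprc (4.10 and 4.36) and endothelial gene Pecam1 (4.59 and 4.84) lay below background. Of the whole marker lists, 2 of 13 leukocyte and 4 of 13 endothelial genes lay below background in each line and the others above it. The mean of the leukocyte list was 6.59 to 6.77 on the v-Src arrays and 6.75 to 6.84 on the STAT3-C arrays, and 2 of its genes were called lower in v-Src cells. The mean of the endothelial list was 5.80 to 5.89 and 5.78 to 5.91, with none called. The mean of the 14 fibroblast genes was 9.96 to 10.39 on the v-Src arrays, 10.12 to 10.24 on the STAT3-C arrays and 11.36 to 11.48 on the control arrays. Of these genes 2 were called higher and 2 lower in v-Src cells. In v-Src cells 1 of them lay below background, and in STAT3-C cells 2. Thy1, another fibroblast gene, stood at 5.68 in v-Src and 5.67 in STAT3-C cells against 10.86 in the control cells.

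The transgenes were examined first. One Stat3 probeset read 10.69, 10.47 and 10.94 on the v-Src arrays and 9.52, 9.52 and 9.18 on the STAT3-C arrays, so it was higher in the line that lacks the Stat3 vector, by 1.29 (SE 0.15, adjusted p = 0.00158). The control arrays read 8.89, 9.23 and 9.38. The other 3 Stat3 probesets differed by 0.17, 0.32 and 0.58 and did not pass. The Src probesets differed by 0.01 and 0.26 and did not pass either. Whether these probes read the sequences carried by the vectors is not given in the sources used here, so they do not check the labels.

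Of the 45037 probesets, 2246 passed as higher on the v-Src arrays (4.99%) and 2399 as lower (5.33%), where a probeset passed if its limma adjusted p was below 0.05 and it changed at least 1.5-fold. Taken as 1 probeset a gene, 881 of 18193 genes were higher (4.84%) and 1242 were lower (6.83%). These percentages are the background against which the gene lists below are read. Among the called genes, the arrays of the lines did not overlap in 879 of the 881 higher and in all 1242 lower genes. The same held for 7345 of all 18193 genes and for 5224 of the 16070 genes not called. A call at these thresholds makes an overlap unlikely, so the count adds no separate support. In 26 of the higher and 43 of the lower genes, the line with the lower level lay below background.

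**Figure D1:**
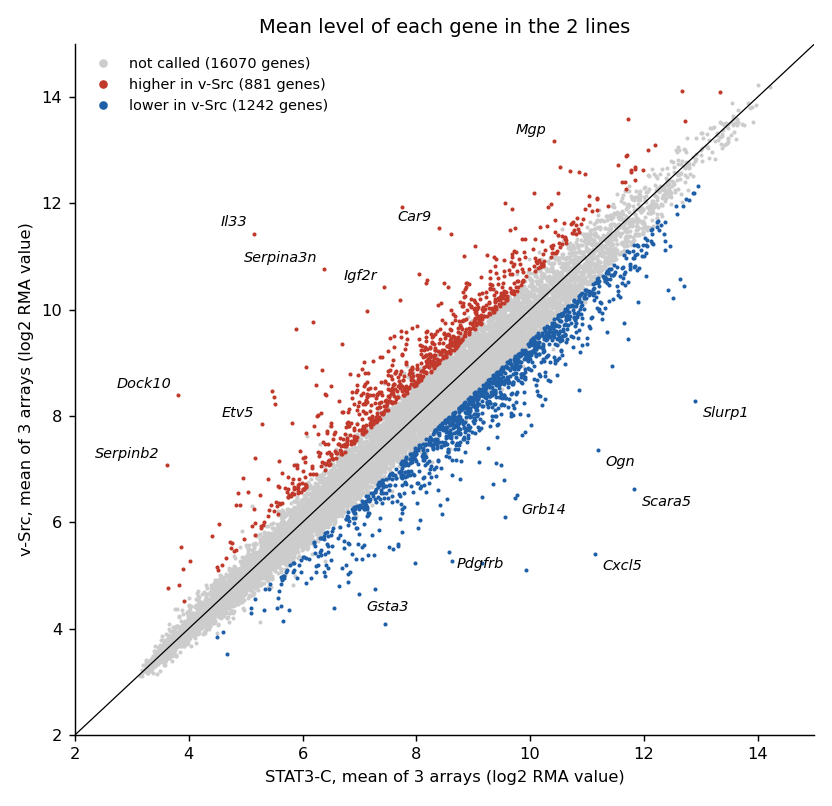
Mean level of each of 18193 genes in STAT3-C cells (horizontal axis) and v-Src cells (vertical axis), both as log2 RMA values over 3 arrays. The 881 genes called higher in v-Src cells lie above the diagonal and the 1242 called lower lie below it, with Il33 farthest above it and Cxcl5 farthest below.

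The control arrays were used to place the mean levels of the called genes. Of the 881 higher genes, v-Src cells were above the control level by at least 1.5-fold and STAT3-C cells were within it in 284, while STAT3-C cells were below and v-Src cells within it in 228. Both lines were above control in 125, both below in 78, and the control level was within the fold of both in 153. Of the 1242 lower genes, 482 stood apart from control in STAT3-C cells, which were above it, and 278 in v-Src cells, which were below it. In 13 higher and 21 lower genes the lines lay on opposite sides of the control level. These counts place mean levels and rest on no test against the control arrays.

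**Figure D2:**
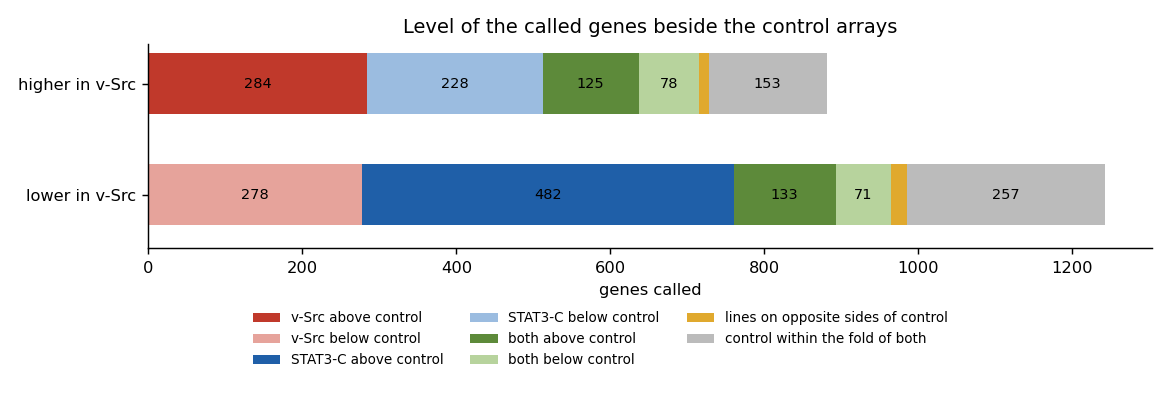
Number of genes called higher (881) or lower (1242) with v-Src set against STAT3-C, split by where the line means lie relative to the control mean at a fold of 1.5. The largest block among lower genes is the 482 in which STAT3-C cells alone are above control.

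Genes of amino acid supply were higher in v-Src cells. ATF4 is a transcription factor of the integrated stress response that induces amino acid synthesis enzymes, transporters and aminoacyl-tRNA synthetases, and 20 of 38 measured genes of this list were higher in v-Src cells, with none lower. Their median difference was 0.68, against -0.03 over all genes. Nupr1, a stress-induced chromatin protein, read 11.59, 11.48 and 11.45 on the v-Src arrays, 10.03, 9.43 and 9.50 on the STAT3-C arrays and 10.47, 10.70 and 10.27 on the control arrays. It was higher by 1.85 (SE 0.16, adjusted p = 0.000624), with the control between the lines. Chac1, which degrades glutathione, read 10.11, 10.22 and 10.24 in v-Src, 9.05, 8.79 and 9.06 in STAT3-C and 10.40, 10.19 and 9.63 in control cells, so STAT3-C cells were the line apart. The same pattern held for Mthfd2, a mitochondrial folate enzyme, with 10.48, 10.87 and 10.43 against 9.30, 8.88 and 9.69 and control values of 10.82, 10.67 and 10.81. Their differences were 1.23 (SE 0.10, adjusted p = 0.000553) and 1.30 (SE 0.21, adjusted p = 0.00581). Aldh1l2, a second mitochondrial folate enzyme, was below control in both lines and higher in v-Src cells by 1.53. Sesn2, an inhibitor of mTORC1, and Trib3, a pseudokinase that restrains ATF4, were higher by 1.28 and 1.17 and lay above control in v-Src cells. Asns, which makes asparagine, Got1 and Gpt2, transaminases, and Gars, the glycyl-tRNA synthetase, were higher by 0.91, 1.05, 1.12 and 0.77. Atf4 itself read 12.54, 12.83 and 12.55 against 12.01, 11.49 and 12.02, a difference of 0.80 (adjusted p = 0.0131), but the mean of all Atf4 probesets did not pass (0.30). Over the 20 members, STAT3-C cells alone departed from control, downward, in 7, and v-Src cells alone, upward, in 3. The count was 16 to 19 when any 1 array was left out.

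ATF4 and its partners are known to bind composite elements with the core TGATGNAA. On either strand, this core was found in 3.24% of the 14368 measured genes that have a promoter in the RefSeq table (250 bases before to 50 after the start, GRCm38.p6), in 10 of 30 promoters of the list and in 7 of 17 promoters of its higher members. These were Asns, Chac1, Gars, Got1, Nupr1, Slc7a11 and Trib3. Over all higher genes the share was 2.92% and over all lower genes 2.27%. The list includes known ATF4 targets, and the core was added with the values already seen. Its share in the list is therefore not independent support. The promoters of Asns (chr6:7693160-7693459, minus strand) and Chac1 (chr2:119350992-119351291, plus strand) are shown as members with the core, which is in capitals and starts 23 and 193 bases before the start of the gene. In Chac1 it lies on the opposite strand.
Asns: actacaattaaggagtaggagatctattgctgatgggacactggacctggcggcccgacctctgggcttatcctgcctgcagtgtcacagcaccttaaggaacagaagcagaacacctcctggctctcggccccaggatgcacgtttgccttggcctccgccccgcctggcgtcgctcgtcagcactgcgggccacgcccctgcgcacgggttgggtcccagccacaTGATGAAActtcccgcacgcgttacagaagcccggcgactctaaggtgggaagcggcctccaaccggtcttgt
Chac1: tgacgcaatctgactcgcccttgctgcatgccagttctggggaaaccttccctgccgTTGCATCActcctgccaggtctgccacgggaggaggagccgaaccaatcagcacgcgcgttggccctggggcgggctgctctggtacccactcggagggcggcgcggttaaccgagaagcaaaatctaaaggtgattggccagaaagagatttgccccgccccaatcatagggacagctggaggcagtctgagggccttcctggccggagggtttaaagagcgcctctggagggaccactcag

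**Figure D3:**
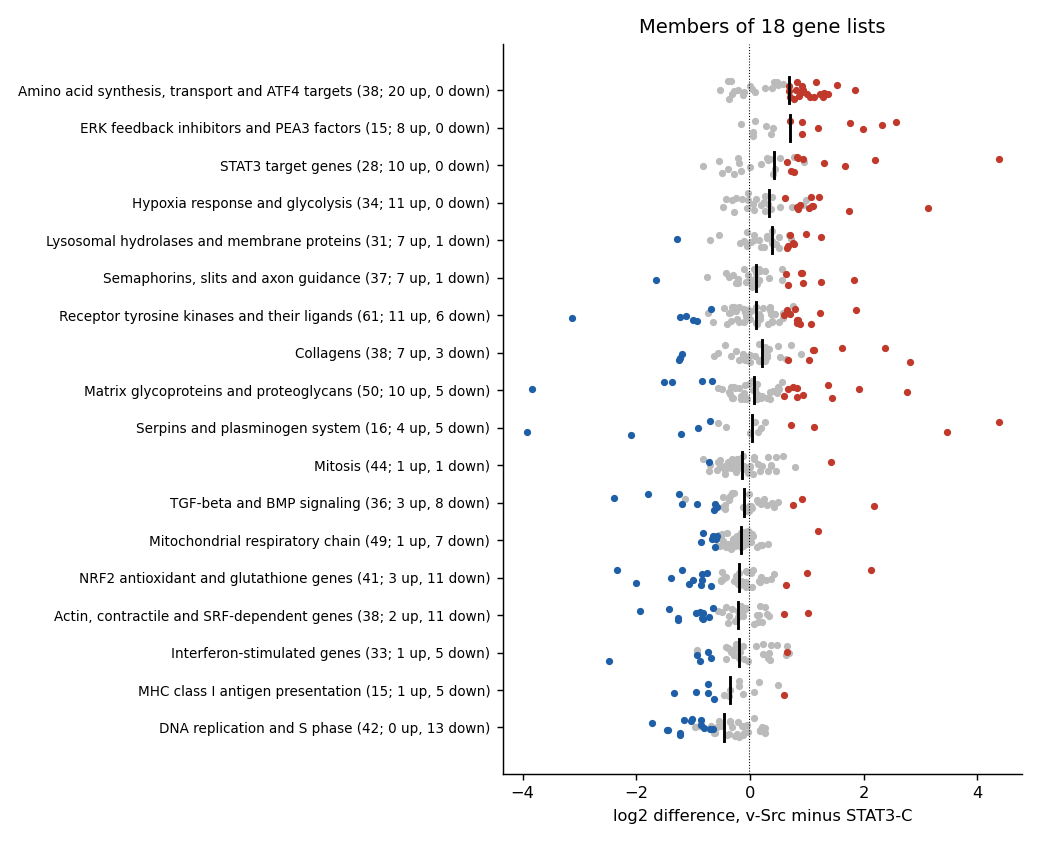
Difference of each measured member of 18 gene lists, v-Src minus STAT3-C on the log2 scale, with the median of each list as a black bar and the median of all genes as a dotted line. Red points were called higher and blue points lower in v-Src cells. The amino acid list (20 of 38 higher) is the top row and the DNA replication list (13 of 42 lower) the bottom row. Rows are not sorted by value.

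Genes known to be induced by ERK signaling were the next to separate the lines, although ERK activity itself was not measured. ERK induces its own inhibitors, the dual-specificity phosphatases and the Sprouty and Spred proteins, and the PEA3 group of ETS factors, and 8 of 15 measured genes of this list were higher in v-Src cells and none lower, with a median difference of 0.71. Etv5, a PEA3 factor, read 7.82, 7.81 and 7.91 on the v-Src arrays and 5.15, 5.13 and 5.56 on the STAT3-C arrays. The control arrays read 7.83, 8.16 and 8.44, so v-Src cells were near the control level and STAT3-C cells near background. The difference was 2.57 (SE 0.13, adjusted p = 0.000119). Dusp6, the cytoplasmic ERK phosphatase, likewise read 10.53, 10.19 and 10.80 against 8.31, 8.43 and 7.79, with control values of 9.90, 9.68 and 10.34 and a difference of 2.33 (SE 0.21, adjusted p = 0.000718). Dusp4, a nuclear phosphatase, had another order. It read 8.42, 8.37 and 8.40 in v-Src cells, 6.49, 6.69 and 6.07 in STAT3-C cells and 5.43, 5.76 and 5.41 in control cells, so both lines exceeded control and v-Src cells exceeded STAT3-C cells by 1.98. Spred3, which inhibits Raf activation, read 8.31, 7.52 and 8.17 against 6.47, 6.45 and 5.81, with control values of 6.46, 6.60 and 6.72. It thus stood above control in v-Src cells alone, by 1.75 over STAT3-C cells (SE 0.25, adjusted p = 0.00358). Spred2, Ier3 and Etv4 were higher by 1.19, 0.92 and 0.91, but the mean of all probesets did not pass for Spred2 (0.41) or Etv4 (0.57). The Sprouty genes Spry1, Spry2 and Spry4 did not pass. Spry1 differed by 0.27 (95% interval 0.09 to 0.46) and Spry2 by 0.05 (-0.32 to 0.42). Over the 8 higher members, v-Src cells alone departed from control, upward, in 3, and STAT3-C cells alone, downward, in 3. The count of higher members was 7 or 8 when any 1 array was left out.

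Known STAT3 targets were also higher in the cells with the kinase. Of 28 measured targets 10 were higher in v-Src cells and none was lower, with a median difference of 0.42. Socs3, the feedback inhibitor of JAK-STAT signaling, read 11.94, 11.68 and 12.06 on the v-Src arrays, 10.17, 9.65 and 9.25 on the STAT3-C arrays and 7.85, 8.33 and 8.60 on the control arrays. Both lines exceeded the control arrays without overlap, and the v-Src arrays exceeded the STAT3-C arrays by 2.21 (SE 0.22, adjusted p = 0.00103); its other 2 probesets differed by 2.28 and 2.68. Il4ra, the interleukin-4 receptor chain, read 9.72, 9.41 and 9.92 against 8.06, 8.06 and 7.90, with control values of 7.44, 7.31 and 7.63. Its difference was 1.68 (SE 0.13, adjusted p = 0.000555). Cebpb, a transcription factor of the acute-phase response, was higher by 0.85 and lay above control in both lines. Of the 10 higher targets, v-Src cells alone were above control in 6. Without v-Src array 1 the number of higher targets was 6. The number of lower targets was 1 without v-Src array 5 or STAT3-C array 1, and 2 without STAT3-C array 3. Array 5 was the lowest v-Src array in 20 of the 28 targets, against 32.6% of all genes. Array 3 was the lowest STAT3-C array in 21, against 33.6% of all genes. Stat5a and Jak2, components of the same signaling system, were higher by 1.15 and 1.09. The control level of Jak2 (9.30, 8.97 and 9.11) lay above both lines and that of Stat5a (6.66, 6.75 and 6.48) below both. Of the acute-phase proteins, Hp, which binds hemoglobin, read 12.32, 12.03 and 11.65 in v-Src, 10.34, 9.99 and 8.36 in STAT3-C and 6.03, 6.24 and 6.41 in control cells. Its difference of 2.44 (SE 0.47) had an adjusted p of 0.0118, and without v-Src array 1 it was 2.27 with an adjusted p of 0.050.

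The GAS motif TTCNNNGAA was found in 8.57% of the 14368 genes with a promoter, in 8.47% of the higher and in 8.90% of the lower genes among them. Its share was thus nearly equal in the 3 groups. It was present in 4 of 24 promoters of the STAT3 list, and in Socs3 and Tnfrsf1a among the higher members, of which Tnfrsf1a did not pass without v-Src array 1 (0.58). The promoter of Socs3 (chr11:117969317-117969616, minus strand) is shown because the gene was the STAT3 inhibitor with the clearest step between the lines; the motif, in capitals, begins 154 bases before the start.
Socs3: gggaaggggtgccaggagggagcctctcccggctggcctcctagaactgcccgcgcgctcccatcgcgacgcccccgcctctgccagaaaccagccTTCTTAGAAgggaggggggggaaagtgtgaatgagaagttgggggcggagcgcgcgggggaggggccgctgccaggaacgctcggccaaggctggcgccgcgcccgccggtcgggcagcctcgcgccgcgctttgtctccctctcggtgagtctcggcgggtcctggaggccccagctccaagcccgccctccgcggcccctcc

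Genes of hypoxia and glycolysis followed the same order of lines. HIF1, which is active when oxygen is low, induces glucose transporters, glycolytic enzymes and the oxygen-sensing prolyl hydroxylases. Of 34 measured members 11 were higher in v-Src cells and none lower. Car9, a carbonic anhydrase of the cell surface, read 12.05, 10.64 and 11.91 in v-Src, 8.35, 9.52 and 7.34 in STAT3-C and 5.48, 5.72 and 5.65 in control cells, and it was the member with the widest spread among the STAT3-C arrays. It was higher by 3.13 (SE 0.57, adjusted p = 0.0092). Hk2, the hexokinase of transformed cells, read 10.06, 9.92 and 9.99 against 9.05, 8.75 and 8.86, with control values of 8.24, 8.41 and 8.20. Its difference was 1.11 (SE 0.10, adjusted p = 0.000718). Ero1a, an oxidase of the endoplasmic reticulum, Slc2a1, the glucose transporter GLUT1, and Egln3, a prolyl hydroxylase, were higher by 1.73, 1.21 and 1.08, and all 3 were above control in both lines. The number of members called was 6 without v-Src array 1 or without v-Src array 6, 7 without STAT3-C array 1, and 14 without v-Src array 5.

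**Figure D4:**
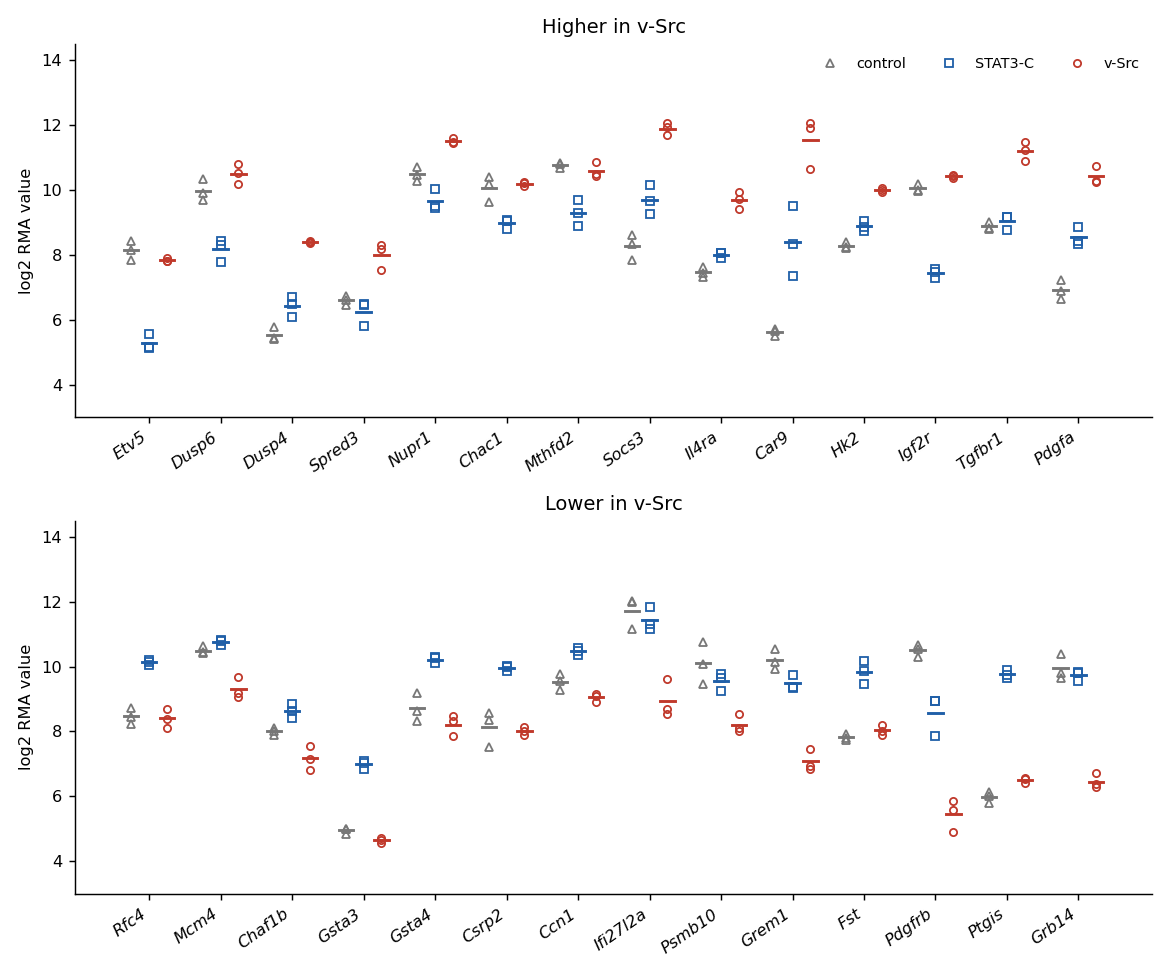
Level on each array of 14 genes that v-Src cells had higher and 14 that they had lower (log2 RMA value), with control arrays as triangles, STAT3-C arrays as squares, v-Src arrays as circles and a bar at the mean of 3 arrays. The control arrays lie with v-Src for Etv5 and Igf2r, with STAT3-C for Grb14, and beyond both for Pdgfrb.

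Genes of DNA replication moved in the opposite direction. Of 42 measured members, which include the MCM helicase, the clamp loader and the origin licensing factors, 13 were lower in v-Src cells and none higher, with a median difference of -0.46. Rfc4, a clamp loader subunit, read 8.39, 8.71 and 8.11 on the v-Src arrays, 10.05, 10.15 and 10.19 on the STAT3-C arrays and 8.44, 8.24 and 8.73 on the control arrays. It differed by -1.73 (SE 0.15, adjusted p = 0.000637), with STAT3-C cells apart from the other lines. Mcm4, a subunit of the replicative helicase, read 9.17, 9.68 and 9.06 against 10.81, 10.66 and 10.78, and the control values of 10.44, 10.42 and 10.63 put v-Src cells apart instead. Its difference was -1.44 (SE 0.16, adjusted p = 0.00146). Chaf1b, a histone chaperone, fell between, at 7.16, 7.54 and 6.82 in v-Src, 8.64, 8.42 and 8.84 in STAT3-C and 8.02, 7.89 and 8.11 in control cells. Cdt1, which licenses origins, differed by -1.04, but the mean of all its probesets did not pass (-0.42). Over the 13 genes, v-Src cells alone departed from control, downward, in 9.

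Mitosis genes, by contrast, did not separate the lines, since 1 of 44 was called in each direction. Plk1, the mitotic kinase, read 9.11, 10.19 and 8.78 on v-Src arrays 1, 5 and 6 and 9.43, 9.20 and 9.73 on the STAT3-C arrays, so that the lines overlapped. Cdc20, an activator of the anaphase-promoting complex, read 10.88, 11.83 and 10.49 against 11.41, 10.88 and 11.63. Array 5 was the highest of the v-Src arrays in all 44 mitosis genes and in 38 of 42 replication genes, against 37.5% of all genes. It was the lowest in 28 of 34 hypoxia genes, against 32.6% of all genes. Array 3 was the highest of the STAT3-C arrays in 41 of 44 mitosis genes and 36 of 42 replication genes, against 39.3% of all genes. It was the lowest in 23 of 34 hypoxia genes, against 33.6% of all genes. Within each line, the array with the most replication and mitosis transcripts was thus the one with the least of the hypoxia list. The mean level of the replication list was 8.91, 9.34 and 8.68 on v-Src arrays 1, 5 and 6 and 9.47, 9.32 and 9.70 on STAT3-C arrays 1, 2 and 3, which leaves an overlap. Without v-Src array 5, 21 replication genes and 17 mitosis genes were lower in v-Src cells, where 7.12% of all genes were lower. Without v-Src array 1 the replication count was 6, without STAT3-C array 1 it was 6 and without STAT3-C array 3 it was 7. When any of the other 5 arrays was left out, the mitosis list had no lower member. The labels do not give cell density or the cell cycle state of a passage, and their part in these counts was not tested.

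**Figure D5:**
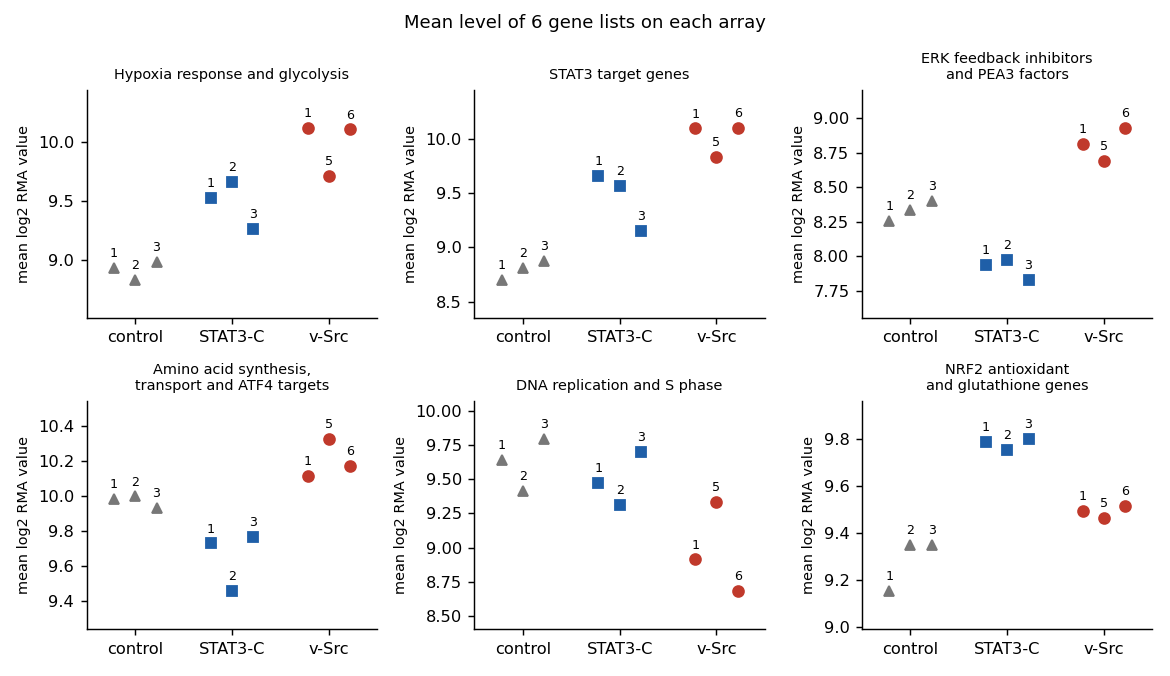
Mean log2 RMA value over all measured members of 6 gene lists on each array, with the array number above each point. The v-Src and STAT3-C arrays do not overlap for any list but DNA replication, where v-Src array 5 (9.34) lies above STAT3-C array 2 (9.32).

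Antioxidant genes were another set with more members lower than higher in v-Src cells. NRF2, encoded by Nfe2l2, induces glutathione transferases, quinone reductase and enzymes that supply NADPH, and of 41 measured genes 11 were lower and 3 higher in v-Src cells. Gsta3, a glutathione transferase, read 4.65, 4.70 and 4.57 on the v-Src arrays, 7.03, 6.85 and 7.08 on the STAT3-C arrays and 4.85, 4.99 and 5.0 on the control arrays. It lay below background in v-Src and control cells and differed by -2.35 (SE 0.09, adjusted p = 4.46e-05). Gsta4, which conjugates lipid aldehydes, read 8.32, 7.85 and 8.46 against 10.10, 10.26 and 10.29, with control values of 8.31, 9.18 and 8.64 and a difference of -2.00. Gstm5 and Mgst3, further transferases, differed by -1.20 and -1.07, and Pgd, a dehydrogenase of the pentose phosphate pathway, by -1.0. Nqo1, the quinone reductase, differed by -1.39 (adjusted p = 0.0138), or by -1.29 without v-Src array 1 and -1.35 without v-Src array 6, with adjusted p-values of 0.057 and 0.054. STAT3-C cells alone were above control in 5 of the 11. The exceptions were Hmox1, heme oxygenase, Slc7a11, the cystine transporter, and Nfe2l2, which were higher in v-Src cells. Hmox1 read 12.58, 11.68 and 12.32 against 10.16, 10.41 and 9.65, with control values of 11.37, 12.06 and 11.06. The control mean lay between the lines, but the control arrays overlapped the v-Src arrays. The difference of Hmox1 between the lines was 2.12 (SE 0.26, adjusted p = 0.0022), while those of Slc7a11 and Nfe2l2 were 1.00 and 0.62. Nfe2l2 did not pass without v-Src array 6 (0.54), STAT3-C array 1 (0.66) or STAT3-C array 3 (0.54). Slc7a11 is also a member of the amino acid list. The number of lower members was 9 to 13 when any 1 array was left out.

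The core antioxidant element TGACNNNGC, on either strand, was found in 16.1% of the 14368 genes with a promoter. It was present in 11 of 34 promoters of the NRF2 list and in 4 of 10 of its lower members, Gsta3, Gstm5, Pgd and Sod1. The list includes genes known to be induced by NRF2, and the element was added with the values already seen. Its share in the list is therefore not independent support. The promoter of Gsta3 (chr1:21240335-21240634, plus strand) is shown as that of the lower member with the largest difference; the element is in capitals and starts 121 bases before the start.
Gsta3: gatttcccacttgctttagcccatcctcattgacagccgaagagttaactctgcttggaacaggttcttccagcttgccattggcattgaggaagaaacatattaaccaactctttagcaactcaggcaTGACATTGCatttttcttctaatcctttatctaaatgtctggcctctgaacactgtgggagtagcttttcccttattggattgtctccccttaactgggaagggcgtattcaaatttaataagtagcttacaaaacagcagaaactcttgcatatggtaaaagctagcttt

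Among cytoskeletal genes, too, more were lower than higher. Of 38 measured contractile and SRF-dependent genes 11 were lower and 2 higher. Csrp2, a LIM protein of actin filaments, read 8.0, 7.89 and 8.14 in v-Src, 10.00, 9.85 and 10.02 in STAT3-C and 8.34, 7.52 and 8.58 in control cells. Its difference was -1.94 (SE 0.09, adjusted p = 0.000115), and the STAT3-C arrays alone stood apart. Ccn1, a matricellular protein induced by SRF and YAP, read 9.15, 8.92 and 9.10 against 10.59, 10.35 and 10.49 and differed by -1.42. Cald1, caldesmon, and Tpm1, tropomyosin, were below control in both lines and furthest below it in v-Src cells, with differences between the lines of -1.28 and -1.27; the mean of the 4 Tpm1 probesets did not pass. Acta2, smooth muscle actin, lay far below control in both lines and did not separate them. It read 7.72, 7.90 and 7.68 in v-Src, 7.65, 7.64 and 7.64 in STAT3-C and 13.13, 12.57 and 12.85 in control cells, a difference between the lines of 0.12 (95% interval -0.07 to 0.32). Of the Src substrates, Sh3pxd2b and Sh3pxd2a, scaffolds of podosomes and invadopodia, were higher in v-Src cells by 1.27 and 0.92, and 3 of 33 genes of that list were higher and 2 lower. The number of lower contractile genes was 10 to 12 when any 1 array was left out.

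Matrix genes moved in both directions. Of 38 measured collagens and collagen-processing enzymes v-Src cells had 7 higher and 3 lower. Col6a3, a chain of microfibrillar collagen, read 11.65, 10.76 and 11.84 against 8.49, 8.63 and 8.71, with control values of 11.34, 11.10 and 11.61, so STAT3-C cells were apart. Its difference was 2.81 (SE 0.26, adjusted p = 0.000811). Col4a1, a basement membrane chain, showed the same order with a difference of 1.62. Col18a1, the precursor of endostatin, instead stood above control in v-Src cells, at 10.72, 10.19 and 10.76 against 8.19, 8.35 and 8.01 and control values of 7.64, 7.80 and 7.58. The fibrillar chain Col5a2 was lower in v-Src cells, with a difference of -1.19 (SE 0.14, adjusted p = 0.00168). Of 50 matrix glycoproteins 10 were higher and 5 lower. Mgp, an inhibitor of calcification, read 13.31, 12.94 and 13.28 in v-Src, 10.86, 10.81 and 9.57 in STAT3-C and 6.56, 6.31 and 6.65 in control cells, and Dcn, decorin, was higher by 1.91 with v-Src cells near control. Itgb4, an integrin chain of hemidesmosomes, was higher in the STAT3-C cells than in both other lines, at 8.42, 8.56 and 8.37 against 6.15, 6.17 and 6.18 and control values of 5.59, 5.79 and 5.58. The number of higher collagen genes was 4 without v-Src array 1, without v-Src array 6 or without STAT3-C array 1.

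Growth factor systems changed at several points. Among receptor tyrosine kinases and their ligands 11 of 61 were higher and 6 lower. Pdgfrb, the receptor of PDGF-BB, read 5.58, 4.90 and 5.86 in v-Src, 8.93, 8.93 and 7.87 in STAT3-C and 10.30, 10.68 and 10.53 in control cells. The control arrays were highest, and the v-Src arrays, which were lowest, differed from the STAT3-C arrays by -3.13 (SE 0.34, adjusted p = 0.00138); the other Pdgfrb probeset differed by -1.27. Genes of PDGF chains moved the other way. Pdgfa, whose AA dimer binds the alpha receptor, read 10.25, 10.75 and 10.27 against 8.35, 8.44 and 8.87, with control values of 6.89, 6.63 and 7.22, and was higher by 1.87 (SE 0.18, adjusted p = 0.000923), and Pdgfb, which encodes the chain of PDGF-BB, was higher by 0.87. Pdgfra, the alpha receptor, did not pass, with a difference of -0.74 (95% interval -1.39 to -0.09). Without STAT3-C array 1 the number of higher members of this list was 6, and without v-Src array 6 it was 7. Grb14, an adapter that inhibits insulin receptor signaling, read 6.37, 6.28 and 6.72 against 9.56, 9.79 and 9.83 and was at control level in STAT3-C cells. Its difference was -3.27 (SE 0.13, adjusted p = 5.92e-05).

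Of the TGF-beta and BMP genes 3 were higher and 8 lower among 36. Tgfbr1, the signaling receptor of TGF-beta, read 11.24, 10.89 and 11.47 against 9.16, 9.17 and 8.76, with control values of 8.82, 8.79 and 9.02, and its 3 probesets were higher by 2.17 to 3.33. Grem1, a BMP antagonist, was lower, at 6.84, 6.94 and 7.47 against 9.38, 9.34 and 9.73, and both lines were below control. Fst, follistatin, an activin antagonist, was lower as well, with a difference of -1.79 (SE 0.18, adjusted p = 0.000967) and STAT3-C cells alone above control. The number of lower members fell to 3 without STAT3-C array 2, 4 without v-Src array 6, and 5 without v-Src array 5 or STAT3-C array 1.

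Immune and inflammatory lists went in different directions. Of 33 interferon-stimulated genes 5 were lower and 1 higher, and of 15 genes of MHC class I presentation 5 were lower and 1 higher. Ifi27l2a, an interferon-induced mitochondrial protein, read 8.54, 8.69 and 9.61 against 11.83, 11.17 and 11.31, with control values of 11.16, 12.03 and 11.99, so v-Src cells were apart. It differed by -2.49 (SE 0.30, adjusted p = 0.00188). Psmb10, an immunoproteasome subunit, differed by -1.33, and Psme1, a proteasome activator, by -0.96. The mean of the interferon list was 7.49 to 7.97 on the v-Src arrays and 7.82 to 8.19 on the STAT3-C arrays, which overlap, and 9.74 to 10.66 on the control arrays. With all 9 arrays in 1 fit the lower interferon genes numbered 3, and the lower MHC class I genes numbered 3 without v-Src array 1 or 6 or without STAT3-C array 1 or 3. Of 27 chemokines 3 were lower, Cxcl5, Ccl7 and Ccl2, and none higher. In either direction 11.1% of the chemokines were called, near the 11.7% of all genes. One was higher when STAT3-C array 1 was left out or all 9 arrays were fitted. Ccl2 did not pass without v-Src array 6 or without any 1 STAT3-C array, where its difference was -1.46 to -1.26. Ccl7, a monocyte attractant, read 7.40, 7.78 and 8.23 in v-Src, 9.78, 9.17 and 8.94 in STAT3-C and 11.82, 11.92 and 11.96 in control cells. The control arrays were highest and the v-Src arrays lowest, without overlap. In the list of NF-kappaB subunits, inhibitors and the interleukin-1 axis 4 of 27 genes were higher, among them Il33, and 2 lower, and without v-Src array 1 the numbers were 2 and 1. Without v-Src array 6, STAT3-C array 1 or STAT3-C array 2, 1 was lower. Of 24 acute-phase and innate defense proteins 5 were higher, among them Hp, and 2 lower.

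Several genes outside these lists separated the lines widely. Igf2r, the cation-independent mannose 6-phosphate receptor that sorts lysosomal enzymes and clears IGF2, read 10.38, 10.42 and 10.48 in v-Src, 7.56, 7.28 and 7.46 in STAT3-C and 9.98, 10.19 and 9.98 in control cells. STAT3-C cells were apart by 2.99 (SE 0.09, adjusted p = 2.01e-05), and the other probeset differed by 2.07. Of 31 lysosomal hydrolases and membrane proteins 7 were higher in v-Src cells, and the cathepsin Ctsh alone was lower, by -1.29 on the log2 scale. Dock10, an exchange factor for small GTPases, was at background in STAT3-C (3.77, 3.97 and 3.70) and control cells (3.62, 3.72 and 3.59) and at 8.57, 7.70 and 8.92 in v-Src cells. Ptpn22, a phosphatase of Src family kinases, was higher in v-Src cells by 2.86, with 8.15, 8.47 and 8.45 against 5.17, 5.58 and 5.73. Ptgis, prostacyclin synthase, was the reverse, at 6.54, 6.41 and 6.57 in v-Src and 9.65, 9.75 and 9.89 in STAT3-C cells, with control values of 6.13, 6.0 and 5.80. Its difference was -3.26 (SE 0.09, adjusted p = 1.27e-05). The paralogous drug transporters Abcb1a and Abcb1b moved in opposite directions. Abcb1a read 8.25, 8.49 and 8.50 against 6.27, 6.61 and 6.29, and Abcb1b read 4.97, 5.46 and 5.26 against 7.91, 8.31 and 7.71, with Abcb1b near control in STAT3-C cells. Their differences were 2.03 (SE 0.12) and -2.75 (SE 0.18), and whether a probe reads both transcripts was not tested.

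The widest gaps between the lines included genes near background on one side. Il33, an alarmin cytokine, read 12.04, 10.04 and 12.21 on the v-Src arrays and no more than 5.39 on the STAT3-C arrays and 5.58 on the control arrays. Kng1, the kininogen gene, read 10.26, 9.14 and 9.51 against 6.46, 5.89 and 5.28, with control values of 5.12, 4.79 and 4.79. It was higher by 3.76 (SE 0.36, adjusted p = 0.000855). Selp, the adhesion molecule P-selectin, read 10.47, 9.83 and 9.62 against 7.38, 6.95 and 7.08, and Cd53, a tetraspanin known from leukocytes, read 9.26, 8.20 and 9.30 against 6.32, 5.90 and 5.97. Both were near the control level in STAT3-C cells, and their differences were 2.84 and 2.85. Mycn, the N-MYC transcription factor, was highest in control cells, at 14.19, 14.15 and 14.08, and read 11.81, 12.03 and 11.93 in v-Src and 7.48, 7.58 and 8.20 in STAT3-C cells. Its 2 other probesets read below 7 on all 9 arrays and did not pass. On the other side, Afp, alpha-fetoprotein, read 4.56, 5.36 and 5.36 in v-Src cells, 10.04, 9.70 and 10.05 in STAT3-C cells and 4.61, 5.63 and 4.72 in control cells, a difference of -4.84 (SE 0.22, adjusted p = 0.000104). Scara5, a ferritin receptor, read 6.58, 6.72 and 6.56 against 11.78, 12.19 and 11.53. Cxcl5, a neutrophil chemokine, read 6.16, 4.31 and 5.75 against 11.46, 11.58 and 10.37, and the control arrays, at 12.24, 12.47 and 12.32, were the highest.

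Protease inhibitors of the serpin family and the plasminogen system went both ways, with 4 of 16 measured genes higher in v-Src cells and 5 lower. Serpina3n, an inhibitor of serine proteases that also stands in the STAT3 target list, read 11.87, 9.37 and 11.04 against 6.48, 6.48 and 6.18, with control values of 5.74, 6.18 and 5.78. Plaur, the urokinase receptor, read 10.79, 10.70 and 10.77 against 9.59, 9.33 and 9.94 and was higher by 1.13 (SE 0.15, adjusted p = 0.00266), with the control arrays below both lines. Serpinb1a, an inhibitor of neutrophil proteases, had the opposite order, at 5.06, 5.22 and 5.40 against 9.44, 9.13 and 8.90, and v-Src cells were near the control values of 4.85, 5.44 and 4.99. Serpinb6b and Serpinb9b, intracellular serpins, were above control in both lines and more so in STAT3-C cells, with differences of -2.09 and -1.22. Timp3, an inhibitor of matrix metalloproteinases, read 7.01, 6.99 and 7.33 against 9.16, 9.09 and 9.94, and its control values of 6.25, 6.36 and 6.56 lay below both lines.

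Of 49 measured subunits of the mitochondrial respiratory chain 7 were lower in v-Src cells and 1 was higher, with a median difference of -0.17. Ndufv2, a subunit of complex I, read 11.19, 11.27 and 11.11 against 12.01, 11.98 and 12.17, with control values of 11.27, 11.21 and 11.28, so STAT3-C cells stood apart. It differed by -0.86 (SE 0.09, adjusted p = 0.00111). Cox8a, a subunit of cytochrome c oxidase, was the exception, at 12.75, 12.76 and 12.66 against 11.76, 11.36 and 11.50, with STAT3-C cells below control. With quantile normalization applied again the lower members numbered 2, and without STAT3-C array 3 they numbered 4.

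Some genes at which both lines stood apart from control differed little between them. Ndn, necdin, a growth suppressor, read 5.29, 5.28 and 5.38 in v-Src, 5.25, 4.85 and 5.12 in STAT3-C and 11.21, 11.45 and 11.46 in control cells. The difference between the lines was 0.24 (95% interval -0.02 to 0.50), at levels near background in both. Vldlr, the very low density lipoprotein receptor, was high in both lines, at 10.59, 10.15 and 10.42 and at 10.66, 10.85 and 10.64, against 5.18, 5.33 and 5.36 in control cells, with a difference of -0.33 (-0.63 to -0.04). Ccnd1, cyclin D1, read 12.40, 12.43 and 12.56 in v-Src, 12.52, 12.60 and 12.77 in STAT3-C and 11.20, 11.38 and 11.71 in control cells, with a difference between the lines of -0.17 (-0.38 to 0.05). Cdkn1a, the CDK inhibitor p21, read 11.47, 11.31 and 11.65, 11.71, 11.74 and 11.55, and 10.27, 10.41 and 10.32 in the same order, with a difference of -0.19 (-0.44 to 0.06). None of these 4 passed at an adjusted p under 0.05, and their intervals lie between -0.63 and 0.50. Cdkn1b, the CDK inhibitor p27, did separate the lines by its probeset with the highest mean, at 8.98, 8.97 and 9.20 against 10.45, 10.89 and 9.99, with v-Src cells below control. The mean of all Cdkn1b probesets did not pass (-0.55).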

How the data were processed

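RNA of 9 cultures was hybridized to Affymetrix mouse genome arrays, 3 each of v-Src, STAT3-C and control Balb/c-3T3 cells, and the groups come from the deposited sample titles. The study prints its lists with the line headings in opposite orders in different places, and directions here rest on those titles. The deposited values are log2 expression values that the authors made by RMA. Their methods describe separate runs of RMA for control with v-Src and for control with STAT3-C arrays; if the columns come from such runs, run and line cannot be told apart. An array has no read depth, and the number of arrays limits the precision.

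The lines were compared here in R 4.3.3 with limma 3.58.1 (lmFit and eBayes) on the 6 arrays, with Benjamini-Hochberg adjustment over 45037 probesets, and a call needed a fold of 1.5 or more with an adjusted p below 0.05. With 3 arrays a line, no exact permutation test can go below p = 0.1, and none was used for the calls. Significance Analysis of Microarrays, an alternative listed below, takes its q from the 20 groupings of the arrays. Probesets with 1 symbol numbered 34945, with several 932 and with none 9160, and a gene is its probeset with the highest mean over 9 arrays. Of 9010 genes with over 1 probeset, 40 had probesets called in both directions. Lists (57, with 1518 of 1643 entries measured) are described by counts and medians, with no set test. The members and lists were chosen with earlier results of these data known. A rule drew a set of genes that could be named. It took Stat3 and Src, the 20 with the largest difference each way, and the 10 with the largest moderated t. It also took the 10 each way among those above background in both lines or with control between the lines. Up to 6 called members a list, all members of short lists and genes the study names completed it. The text names only part of this set, and that part was not chosen by a rule. Acta2, Asns, Atf4, Cdc20, Cdt1, Col1a1, Etv4, Gars, Got1, Gpt2, Nfe2l2, Pdgfb, Pdgfra, Pecam1, Pgd, Plk1, Ptprc, Slc7a11, Sod1, Spry1, Spry2, Spry4, Thy1, Tnfrsf1a, Trib3 and Vim were added with their values already seen, and so were the ATF4 and antioxidant motifs. Promoters are RefSeq sequences (GRCm38.p6), matched by gene identifier for 14368 of 18193 genes. Of these, 2648 had over 1 promoter, and a gene was counted once if any of its promoters held the motif. Shares and counts of promoters are thus of genes. Of the motif list, AP-1 (TGANTCA), CArG box, kappaB and ISRE were found in 8.75%, 1.53%, 14.2% and 4.31% of promoters of higher genes, 6.53%, 1.78%, 10.9% and 4.55% of lower genes and 7.50%, 1.59%, 11.7% and 3.64% of all. Trp53 is not analysed here. Alternatives were median centring, renewed quantile normalization, a joint fit of all 9 arrays, probesets above the median level, other thresholds, Significance Analysis of Microarrays (SAM) over 20 groupings at a q under 5%, eBayes with trend and robust, averaging the probesets of each gene, and leaving out each array.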

Additional observations from a re-analysis of the deposited data

Results flagged for a closer look

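By array values, the lines lay on opposite sides of the control arrays, with no overlap among the 3 groups and at least 1 log2 unit from both lines, for 1 gene higher and 1 gene lower in v-Src cells. Serpinb2, the plasminogen activator inhibitor of the B clade, read 7.37, 6.18 and 7.68 in v-Src, 5.10, 5.94 and 4.15 in control and 3.79, 3.51 and 3.52 in STAT3-C cells, a direct difference of 3.47 (limma, adjusted p = 0.00104). The STAT3-C mean and the control mean of 5.06 are both below background, so the order of these 2 groups cannot be read, although 1 control array (5.94) was above it. Ogn, a small leucine-rich proteoglycan also called osteoglycin, had the reverse order, at 7.31, 7.02 and 7.76 in v-Src, 9.55, 9.12 and 8.97 in control and 11.39, 11.48 and 10.74 in STAT3-C cells, a direct difference of -3.84 (adjusted p = 0.000296). The direct difference was tested, and the place of the control level was not. Groups of 3 arrays are too small to test a single array as an outlier.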

How the results depend on the processing

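The counts depended mainly on the thresholds. A 2-fold threshold left 725 probesets as higher and 771 as lower, and 292 and 368 genes. With no fold threshold the numbers were 4578 and 4546 probesets and 1802 and 2371 genes. At an adjusted p under 0.01, 1466 probesets were higher. Leaving out 1 array gave 1769 to 2358 probesets higher and 1800 to 2481 lower, and 697 to 978 genes higher and 926 to 1295 lower. The remaining alternatives moved none of the 4 counts by over 1.5 times. Renewed quantile normalization and median centring changed the median over all probesets from 0.00 to -0.01 and -0.02. Of 96 called genes named above, none changed direction under any alternative that tested it, and 91 kept the call, leaving aside the stricter thresholds, the restriction to probesets above the median level (which left 4 of them untested) and the mean of all probesets. Leaving out 1 array ended the call for Ccl2, Hp, Nfe2l2, Nqo1 and Tnfrsf1a, with the values given beside them. The mean of all probesets ended it for Atf4 (0.30), Cdkn1b (-0.55), Cdt1 (-0.42), Etv4 (0.57), Mgst3 (-0.51), Nfe2l2 (0.32), Sh3pxd2a (0.39), Sod1 (-0.41), Spred2 (0.41) and Tpm1 (-0.50), and the cause was not tested. No paired analysis was possible because the lines share a single array number. Levels under 5.14 are near background, and a difference that reaches them may be understated.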

Other observations

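Axon guidance genes, which also steer migrating mesenchymal cells, separated the lines. Of 37 measured, 7 were higher in v-Src cells and 1 was lower. Sema5a, a transmembrane semaphorin, read 8.58, 8.67 and 9.37 against 7.01, 7.22 and 6.91, with the control arrays between at 7.91, 7.60 and 7.76. It was higher by 1.83 (limma, SE 0.21, adjusted p = 0.00159). Nrp1, neuropilin, a co-receptor of secreted semaphorins and VEGF, read 8.23, 8.85 and 8.94 against 10.33, 10.33 and 10.31, and STAT3-C cells were near the control values of 10.66, 10.48 and 10.54. Of 22 iron-handling genes 4 were higher and 2 lower. Slc39a14, an importer of iron and zinc, read 11.37, 10.60 and 11.05 in v-Src and 8.86, 8.86 and 8.79 in STAT3-C cells, and Cp, the ferroxidase ceruloplasmin, was higher by 1.58. Of 15 BCL2 family genes 4 were higher and 3 lower. Bcl2l11, which encodes the death activator BIM, was higher by 1.22 and lay above control in v-Src cells, and Pmaip1, which encodes NOXA, differed by -0.90 and lay above control in both lines.

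Neighbouring genes were described by the median difference over 20 genes in a row, among 15406 genes above background with a place in the gene table. Of 15017 windows 95% lay between -0.25 and 0.18. The highest was on chromosome 19, from Ina to Mxi1 (0.45, with 17 of 20 genes above 0), and the lowest on chromosome 17, from Ehd3 to Prkd3 (-0.51, with 2 of 20 above 0). Chromosome 19 also held the second lowest, from Brms1 to Mus81 (-0.49). In that window STAT3-C cells were above the control level by a median of 1.00 and v-Src cells by 0.45. In the window from Ina to Mxi1 both lines were below it, at -0.64 and -0.18. Gene copy number was not measured.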
